A study of Mus musculus with 9 samples.

Results

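Type I interferon stimulated genes were followed as a set of 40 mouse genes, taken by symbol from a fixed list, among the 22136 genes with a summed estimated read count. All 40 were found in the files and all 40 had enough reads to be tested, so no member was lost to the filter on low counts. They were measured in 9 bulk RNA libraries made from subcutaneous YUMMER1.7 tumors, dissected from the skin of C57BL/6J mice. YUMMER1.7 is a single ultraviolet-mutagenized mouse melanoma line, and its host mice were immunocompetent. Treatment was with antibody to B7-H3, antibody to PD1 or an isotype control (IgG), and each group has 3 libraries. Dosing began after tumors were established. A combination of both antibodies, part of the study's design, is not analysed here. B7-H3 and PD-1 are immune checkpoint proteins. The age of the mice and the antibody doses are not given in the sources used here. Whether libraries came from separate mice is not stated, so p-values reflect spread among these samples alone, and that spread may be technical.

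Type I interferons, the interferon alpha and beta proteins, are released when cells sense foreign or misplaced nucleic acid. They bind the receptor chains Ifnar1 and Ifnar2, whose kinases Jak1 and Tyk2 activate transcription factors that include Stat2. Stat2 and Irf9 are subunits of a complex that binds the interferon-stimulated response element in promoters and switches on a broad antiviral programme. In tumors this programme is known from malignant, stromal and immune cells alike, and interferon gamma, the T and NK cell interferon, induces many of the same genes.

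The element is shown first because it is what many members have in common apart from their list. Promoter windows from RefSeq (GRCm38.p6), from 250 bases before to 50 bases after each start, were at hand for 29 of the 40 members. Its core letters, GAAA, any 2 bases and GAAA again, searched on both strands, occurred in 14 of these 29 members (48.3%), against 3.99% of all 27025 genes with a window. They are not particular to this set: 23 of 51 further interferon-stimulated genes (45.1%) and 9 of 12 genes that lean to interferon gamma (75.0%) held them. The core of the gamma-activated site, TTCNNNGAA, which reads the same on both strands, occurred in 7 of the 29 (24.1%), against 9.55% of all genes. A match of letters is a description and not a measured binding site. Below are stretches that end at or before the start site, written along the gene's strand with the matches, on either strand, in capitals. They include the ubiquitin-like Isg15, the neighbouring genes Ifit1, Ifit3 and Ifit3b, and Stat2, a subunit of the complex that binds the element.
Isg15 (chr4:156200855-156200916, minus strand): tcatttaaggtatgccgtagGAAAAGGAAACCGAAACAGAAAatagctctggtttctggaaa
Ifit1 (chr19:34640765-34640833, plus strand): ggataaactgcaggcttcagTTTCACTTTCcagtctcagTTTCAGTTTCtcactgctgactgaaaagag
Ifit3 (chr19:34583353-34583402, plus strand): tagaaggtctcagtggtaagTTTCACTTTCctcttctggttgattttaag
Ifit3b (chr19:34607749-34607798, plus strand): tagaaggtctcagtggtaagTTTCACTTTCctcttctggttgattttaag
Oas1a (chr5:120907526-120907565, minus strand): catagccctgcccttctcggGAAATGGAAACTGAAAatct
Bst2 (chr8:71537567-71537622, minus strand): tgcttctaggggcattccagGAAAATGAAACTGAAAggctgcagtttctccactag
Stat2 (chr10:128270256-128270305, plus strand): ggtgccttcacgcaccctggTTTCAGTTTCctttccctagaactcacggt
In Isg15 the first of 3 overlapping matches began 78 bases before the start, and in Ifit1 the first of 2 began 104 bases before it. The stretches of Ifit3 and Ifit3b are the same letter for letter, at 156 and 188 bases before their starts. The windows of Samd9l, Irf7, Irf9 and Ifit2 were among those that held no match to the GAAA core letters.

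The libraries differed before any interferon gene was considered. Major satellite repeats, the tandem repeats beside mouse centromeres, took 87.0 to 92.1% of gene reads with IgG and 5.24 to 38.2% in the 6 antibody libraries, which left 1218985 to 3533214 reads outside them with IgG and 5320073 to 14404557 with an antibody. Reads of 1514 olfactory and vomeronasal receptor genes were used as a measure of background. This assumes that these genes are largely silent outside chemosensory tissue, which was not tested here. These reads came to 769.8 to 4990 CPM (counts per 1000000 reads outside satellites) with IgG and to 40.6 to 283 CPM with an antibody. Scaled to coding length, that background predicted a median of 28.3% of a member's reads in IgG replicate 3, but 4.60 and 2.63% in IgG replicates 1 and 2 and at most 0.779% in the antibody libraries. IgG replicate 3 was also thinnest, with 4 to 94 reads per member, so its values are the least precise, and for Oas3 the predicted background (160%) exceeded the reads found. Satellite share, background and treatment cannot be told apart in comparisons with IgG. Of 9 melanocyte lineage markers only Mitf had enough reads to be tested. Summed markers stood at 4.73 to 23.5 CPM on another scale, after the TMM scaling explained below. The pigment cell identity of the tumor is thus not visible in these libraries.

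The 40 genes varied together, library by library in an order that cut across the treatments. The summed level of the 40 genes was 1020, 611 and 457 CPM in IgG replicates 1 to 3, 662, 1390 and 896 CPM with anti-B7-H3, and 679, 547 and 947 CPM with anti-PD1. CPM are given here and below after TMM scaling, which sets libraries level on their typical gene. In each group 1 library stood above the others, and the ranges of all 3 groups overlapped. IgG replicate 1 was the highest IgG library for 38 of 40 members (all but Mx2 and Isg20), against 22.6% of all 12965 tested genes. Anti-B7-H3 replicate 2 was highest in its group for 39 (all but Parp9; background 25.5%) and highest of all 9 libraries for 36, against 5.71% of tested genes. Anti-PD1 replicate 3 led its group for 37 (all but Eif2ak2, Rsad2 and Ifi27l2a; background 29.2%). These libraries were picked from the members' own values, so the shares describe the order and do not test it. All 3 leads held at once for 34 of 40 members, and for 2.95% of tested genes. That number was 35 with DESeq2 size factors, 36 with totals outside the satellite genes and 34 after subtraction of the receptor background, 3 settings tried after the pattern had been seen. In the bulk tumor, fewer cells of a type and less RNA per cell cannot be told apart.

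**Figure D1:**
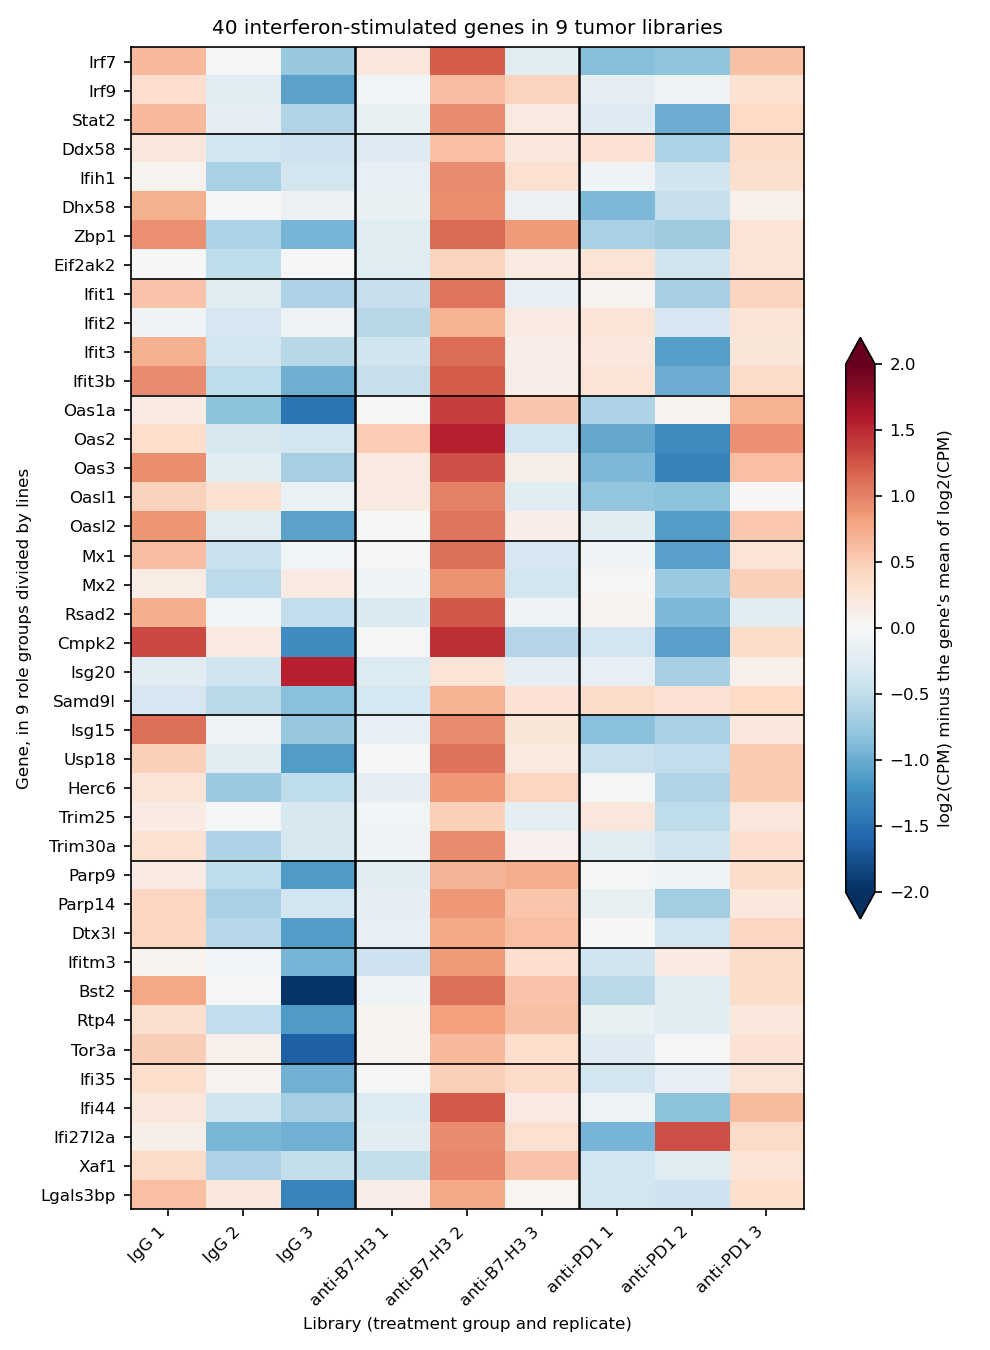
Heat map of the 40 genes (rows, in 9 role groups) over the 9 libraries (columns), coloured by log2(CPM) minus the gene's mean, with red above and blue below. Anti-B7-H3 replicate 2 is the highest library for 36 of 40 genes, while IgG replicate 1 leads the IgG group for 38 and replicate 3 the anti-PD1 group for 37.

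Spread within groups was wide. The highest of 3 libraries exceeded the lowest by a median of 2.35-fold over members with IgG (all tested genes with reads in every library of the group, 1.63-fold). In the anti-B7-H3 group it was 2.15-fold (1.38-fold) and in the anti-PD1 group 1.97-fold (1.47-fold). By contrast, the fitted fold between groups, in either direction, had a median of 1.34 when anti-B7-H3 was set against IgG, 1.19 when anti-PD1 was, and 1.39 between the antibodies. The range within 1 of the groups compared was larger than the fold between them for 40, 39 and 40 of the 40 members in these 3 comparisons, which is also the usual case, with 92.4, 88.3 and 92.5% of tested genes that had reads in every library compared. Samd9l in anti-PD1 against IgG was the exception.

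Transcription factors of the pathway followed the shared order in all 3 cases. Irf7, which amplifies interferon production, had 29.2, 18.4 and 11 CPM with IgG, 21.6, 43.4 and 16.1 CPM with anti-B7-H3, and 10.4, 10.7 and 28.0 CPM with anti-PD1. Every group thus held 1 library well above the others. Irf9, the DNA-binding partner of Stat2, had 17.1, 11.5 and 6.44 CPM with IgG, 13.0, 20.7 and 18.4 CPM with anti-B7-H3, and 11.8, 12.6 and 16.7 CPM with anti-PD1. Its groups overlapped throughout, and its log2 fold change was 0.52 ± 0.30 (SE) for anti-B7-H3 against IgG (edgeR adjusted p = 0.581). For Irf7 that change was 0.43 ± 0.51 (edgeR adjusted p = 0.824), so neither factor passed.

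Among the sensors of viral nucleic acid, Ifih1 (MDA5, a sensor of long double-stranded RNA, at chr2:62595798-62646255) had 25.5, 15.5 and 18.9 CPM with IgG, 21.8, 47.1 and 30.2 CPM with anti-B7-H3, and 23.2, 18.5 and 30.5 CPM with anti-PD1. Replicates 2 and 3 of anti-B7-H3 lay near or above the highest of the other groups, while replicate 1 lay inside the IgG range. Its change was 0.73 ± 0.31 for anti-B7-H3 against IgG (unadjusted p = 0.0358, edgeR adjusted p = 0.409). Dhx58 (LGP2), a relative that tunes the other helicase sensors, had 19.5, 11.9 and 11 CPM with IgG, 10.7, 22.6 and 11 CPM with anti-B7-H3, and 6.41, 8.68 and 12.8 CPM with anti-PD1. It stood lower with anti-PD1 in 2 of 3 libraries, with a change of -0.62 ± 0.37 against IgG (edgeR adjusted p = 0.395). The other sensors were Ddx58 (RIG-I), Zbp1 and the kinase Eif2ak2 (PKR). Over all 5 genes log2 fold changes ran from 0.05 to 0.73 for anti-B7-H3 and from -0.62 to 0.27 for anti-PD1, both against IgG.

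The Ifit proteins bind foreign RNA ends and block translation. Ifit3 had 84.5, 39.8 and 34.9 CPM with IgG, 38.8, 112 and 56.4 CPM with anti-B7-H3, and 59.4, 23.9 and 60.9 CPM with anti-PD1. IgG replicate 1 was therefore above 2 of 3 anti-B7-H3 libraries. Ifit2 was the steadiest member within IgG, with 18.3, 15.2 and 17.9 CPM, against 13.1, 31.3 and 21.8 CPM with anti-B7-H3 and 23.0, 15.2 and 23.2 CPM with anti-PD1. The 4 family members had changes of 0.29 to 0.38 for anti-B7-H3 and -0.15 to 0.26 for anti-PD1 against IgG, and none passed the edgeR test (smallest adjusted p = 0.711 and 0.676). Ifit3 and Ifit3b share 78.1% of the 31-base words of their coding sequences, so how reads divide between this pair is uncertain.

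The Oas family senses double-stranded RNA, and its synthetases make the signal that activates RNase L. Oas1a (ENSMUSG00000052776, chr5:120896256-120907521 in GRCm38) had the largest fitted change of any member against IgG. Its level there was 9.66, 4.90 and 3.12 CPM (50, 44 and 7 reads). It had 8.77, 22.4 and 12.7 CPM with anti-B7-H3, and 5.64, 8.98 and 14.0 CPM with anti-PD1. Anti-B7-H3 replicate 1 lay below IgG replicate 1, so the groups overlapped. Its change was 1.24 ± 0.48 for anti-B7-H3 (unadjusted p = 0.0263, edgeR adjusted p = 0.357) and 0.63 ± 0.48 for anti-PD1 (edgeR adjusted p = 0.510). Oas1a shares 60.5% of its 31-base coding words with Oas1g, so its reads may include some of that gene.

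Oasl1 (chr5:114923240-114937915), which restrains translation of Irf7 in mice, had 4.87, 4.36 and 3.22 CPM with IgG, 3.99, 7.12 and 3.06 CPM with anti-B7-H3, and 2.04, 1.99 and 3.53 CPM with anti-PD1. In all, 2 of the anti-PD1 libraries were the lowest of all 9. It was the only member with an unadjusted p under 0.05 in anti-B7-H3 against anti-PD1, with a change of 0.90 ± 0.36 (unadjusted p = 0.0277, edgeR adjusted p = 0.749). The 5 Oas family members spanned 0.15 to 1.24 for anti-B7-H3 and -0.74 to 0.63 for anti-PD1, both against IgG.

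Samd9l (ENSMUSG00000047735, chr6:3372257-3399572 in GRCm38), an antiviral inhibitor of translation, came closest to a call and stood apart in its anti-PD1 libraries. It had 25.3, 21.8 and 17.9 CPM with IgG, 24.8, 51.6 and 38.9 CPM with anti-B7-H3, and 41.4, 38.8 and 42.1 CPM with anti-PD1. All 3 anti-PD1 libraries lay above all 3 IgG libraries, which was true of no other member (1 of 40; 11.1% of tested genes), and they differed among themselves by 1.08-fold. The change was 0.90 ± 0.25 for anti-PD1 against IgG (edgeR adjusted p = 0.115) and 0.81 ± 0.25 for anti-B7-H3 against IgG (edgeR adjusted p = 0.209). Between the antibodies it was -0.08 ± 0.24 (edgeR adjusted p = 0.959). It was also the member with the smallest p over all 3 groups (unadjusted p = 0.00961, edgeR adjusted p = 0.198). DESeq2 called it against IgG in both comparisons, with adjusted p = 0.0245 for anti-B7-H3 and 0.0144 for anti-PD1, where it called 13.2% and 10.9% of all genes. The DESeq2 fit was run without the filter on low counts used for edgeR, so tool and filter cannot be told apart there. Without that filter edgeR called it in both as well (adjusted p = 0.0233 and 0.0262), so its edgeR call depends on the filter. The edgeR test called it for anti-B7-H3 once anti-B7-H3 replicate 1 was left out (adjusted p = 0.0474). Over all 20 alternatives its adjusted p against IgG ran from 0.0233 to 1.00 for anti-B7-H3 and from 0.0144 to 0.963 for anti-PD1.

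The Mx GTPases, viperin (Rsad2), the nucleotide kinase Cmpk2 and the exonuclease Isg20 act on viral particles, genomes or RNA. Rsad2 had 7.59, 4.39 and 3.24 CPM with IgG, 3.74, 10.8 and 4.35 CPM with anti-B7-H3, and 4.81, 2.46 and 3.96 CPM with anti-PD1. Its 3 groups overlapped, at -0.49 ± 0.47 for anti-PD1 against IgG (edgeR adjusted p = 0.612). Mx1, whose protein is defective in C57BL/6J and most laboratory strains, still showed the shared order in its RNA, with 13.4 CPM in anti-B7-H3 replicate 2 and 9.54 CPM in IgG replicate 1. Isg20 was the only member with a negative change for anti-B7-H3 against IgG (-0.46 ± 0.51, edgeR adjusted p = 0.807). It rested on IgG replicate 3, at 5.98 CPM from 13 reads, against 1.75 and 1.56 CPM in the other IgG libraries.

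Isg15 is a ubiquitin-like protein that is joined to other proteins, in mice by the ligase Herc6, and removed by Usp18, which also shuts off the receptor. Isg15 had 29.9, 13.0 and 8.28 CPM with IgG, 12.5, 26.7 and 16.4 CPM with anti-B7-H3, and 7.80, 8.85 and 16.3 CPM with anti-PD1. It was the only member with its highest value of all 9 libraries in IgG replicate 1. Herc6 had 21.2, 10.6 and 12.4 CPM with IgG, 15.6, 32.2 and 23.7 CPM with anti-B7-H3, and 17.1, 11.6 and 25.4 CPM with anti-PD1, with a change of 0.69 ± 0.37 for anti-B7-H3 against IgG (edgeR adjusted p = 0.562). Trim30a, a ubiquitin ligase family member induced by interferon, had 18.5, 9.71 and 12 CPM with IgG, 14.1, 28.7 and 15.8 CPM with anti-B7-H3, and 12.8, 11.3 and 18.8 CPM with anti-PD1, at 0.55 ± 0.34 for anti-B7-H3 against IgG (edgeR adjusted p = 0.621). For Herc6, 39.1% of the 31-base coding words also occur in the transcript model Gm45193, so its reads may be split.

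Parp9 and Dtx3l form a complex that enhances interferon signalling, and Parp14 is a related mono-ADP-ribosyltransferase. Parp9 (chr16:35938470-35972605) had 29.8, 18.7 and 12 CPM with IgG, 22.9, 42.6 and 43.7 CPM with anti-B7-H3, and 25.9, 25.2 and 34.1 CPM with anti-PD1. With anti-B7-H3 it was slightly higher in replicate 3 than in replicate 2, while the other 39 members were highest in replicate 2. Its change was 0.82 ± 0.32 for anti-B7-H3 against IgG (unadjusted p = 0.0271, edgeR adjusted p = 0.360). Parp14 (chr16:35832874-35871544) had 75.9, 36.1 and 43.3 CPM with IgG, 49.6, 103 and 82.6 CPM with anti-B7-H3, and 50.6, 34.6 and 65.1 CPM with anti-PD1, at 0.60 ± 0.35 and -0.05 ± 0.35 against IgG (edgeR adjusted p = 0.587 and 0.965).

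Membrane and trafficking members include Ifitm3, which blocks fusion of viruses in endosomes, Bst2 (tetherin), which holds budding virus at the surface, and the receptor transporter Rtp4. Rtp4 (chr16:23520291-23614222) had 11.3, 6.48 and 4.14 CPM with IgG, 9.42, 16.1 and 13.6 CPM with anti-B7-H3, and 8.16, 7.78 and 10.5 CPM with anti-PD1. Its change for anti-B7-H3 against IgG was 0.79 ± 0.32 (unadjusted p = 0.0291, edgeR adjusted p = 0.373). Ifitm3 had 43.2, 39.3 and 21.6 CPM with IgG, 30.9, 73.7 and 51.8 CPM with anti-B7-H3, and 31.1, 45.9 and 53.0 CPM with anti-PD1. All 3 groups overlapped for both genes. Per kilobase of effective length, Ifitm3 was the most abundant member, with a mean level of 178 CPM per kb over the 9 libraries, followed by Bst2 at 107 and Ifit3 at 55.0. Oas3 and Mx2 were the least abundant on that scale, at 2.18 and 2.21. Bst2 had the widest range within IgG, 6.65-fold.

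In the remaining group, Xaf1, a pro-apoptotic partner of XIAP, had 12.5, 6.26 and 6.90 CPM with IgG, 6.92, 18.8 and 14.3 CPM with anti-B7-H3, and 7.36, 8.12 and 11.5 CPM with anti-PD1, at 0.64 ± 0.38 for anti-B7-H3 against IgG (edgeR adjusted p = 0.608). Ifi27l2a, of the interferon-inducible Ifi27 family, had 3.89, 1.90 and 1.84 CPM with IgG, 3.07, 6.89 and 4.42 CPM with anti-B7-H3, and 1.89, 8.80 and 4.67 CPM with anti-PD1. It was the only member whose highest library of all 9 was anti-PD1 replicate 2, and its range within anti-PD1, 4.64-fold, was the widest of any member there. Its changes against IgG were 0.90 ± 0.57 for anti-B7-H3 and 1.00 ± 0.57 for anti-PD1 (edgeR adjusted p = 0.634 and 0.375). Ifi35, Ifi44 and Lgals3bp had changes of 0.29 to 0.71 for anti-B7-H3 and -0.17 to 0.22 for anti-PD1, both against IgG.

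Anti-B7-H3 was compared with IgG to ask what the antibody changed in the tumor. All members but Isg20 had a positive fitted change, 39 of 40, against 53.3% of tested genes, with a median log2 fold change of 0.41 and a range of -0.46 to 1.24. The median of all tested genes was 0.03. Among cell type markers, 12 of 13 of macrophages and monocytes were positive (median 0.92), 7 of them at an unadjusted p under 0.05. Positive changes were also fitted for 8 of 10 T and NK cell markers (median 0.55) and 6 of 6 skeletal muscle markers (median 4.17), and 0 genes of these 3 lists passed. Dsp, the tested keratinocyte marker, was at -4.08 ± 0.79 (edgeR adjusted p = 0.0505). Their part in the members' values was not tested. None passed at an adjusted p under 0.05 (0 of 40), where 0.555% of the 12965 genes did with edgeR's quasi-likelihood test. At an unadjusted p under 0.05 there were 5 (Ifih1, Oas1a, Samd9l, Parp9 and Rtp4), all positive, against 10.5% of tested genes in either direction and 3.58% that were positive. No member had groups free of overlap, against 7.73% of tested genes higher and 8.55% lower without overlap. DESeq2 called 1 member (Samd9l), where it called 13.2% of its 21578 genes, and limma-voom called 0. The median depended on single libraries: it was 0.17 without anti-B7-H3 replicate 2, where 24 of 40 were positive, and 0.88 without IgG replicate 1. Without IgG replicate 3, the library of highest background, it was 0.30 with 36 positive. With the receptor background as a covariate it was -0.33, with 12 of 40 positive, while with that background subtracted from the reads it was 0.41.

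Anti-PD1 against IgG addressed the same question for PD-1 blockade. The 40 genes were balanced around 0, with 21 positive (50.5% of tested genes), a median of 0.02 and a range of -0.76 to 1.00, from Cmpk2 to Ifi27l2a. Beside this, macrophage and monocyte markers were positive in 11 of 13 (median 0.86), T and NK cell markers in 2 of 10 (median -0.49) and skeletal muscle markers in 6 of 6 (median 4.07), and 0 of these passed. Their part was not tested. None passed the edgeR test (0 of 40; 0.393% of tested genes), and 1, Samd9l, had an unadjusted p under 0.05, against 18.5% of tested genes in either direction and 7.67% that were positive. No member was lower without overlap, against 11.9% of tested genes. DESeq2 called Samd9l alone, 1 of 40 against 10.9% of its 21578 genes, and limma-voom called 0. Without IgG replicate 1 the median was 0.41 with 35 positive, and without anti-PD1 replicate 3 it was -0.25 with 12 positive. Without IgG replicate 3 it was -0.12 with 16 positive, and with the receptor background as a covariate it was -0.58 with 6 positive. Both comparisons share the IgG libraries.

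Anti-B7-H3 against anti-PD1 does not compare IgG libraries, where the receptor background was highest. The antibody groups differed in background too. Receptor reads came to 40.6 to 199 CPM outside satellites with anti-B7-H3 and 79.1 to 283 with anti-PD1. Satellite shares were 5.24 to 28.2% and 14.6 to 38.2%, lowest in anti-B7-H3 replicate 2. The part of these differences in this comparison was not tested. Here 38 of 40 members were higher with anti-B7-H3 (51.1% of tested genes), all but Samd9l and Ifi27l2a, with a median of 0.48 and a range of -0.10 to 0.98, the highest being Zbp1, a sensor of Z-form nucleic acid. T and NK cell markers were positive in 8 of 10 (median 0.76) and macrophage and monocyte markers in 8 of 13 (median 0.15). Conventional dendritic cell markers were positive in 5 of 8 (median 0.20) and fibroblast markers in 4 of 7 (median 0.12). Endothelial markers were positive in 0 of 6 (median -0.35). The part of these cells was not tested. None passed the edgeR test (0 of 40; 0% of tested genes), DESeq2 and limma-voom called 0 members, and 1, Oasl1, had an unadjusted p under 0.05, against 6.48% of tested genes in either direction and 3.92% that were positive. No member was free of overlap between the groups, against 7.56% of tested genes higher and 7.88% lower. The median was 0.15 without anti-B7-H3 replicate 2 (26 positive) and 0.75 without anti-B7-H3 replicate 1. In the test over all 3 groups 0 of 40 members passed with edgeR, against 1.14% of tested genes, and 1 (Samd9l) had an unadjusted p under 0.05, against 14.0%.

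**Figure D2:**
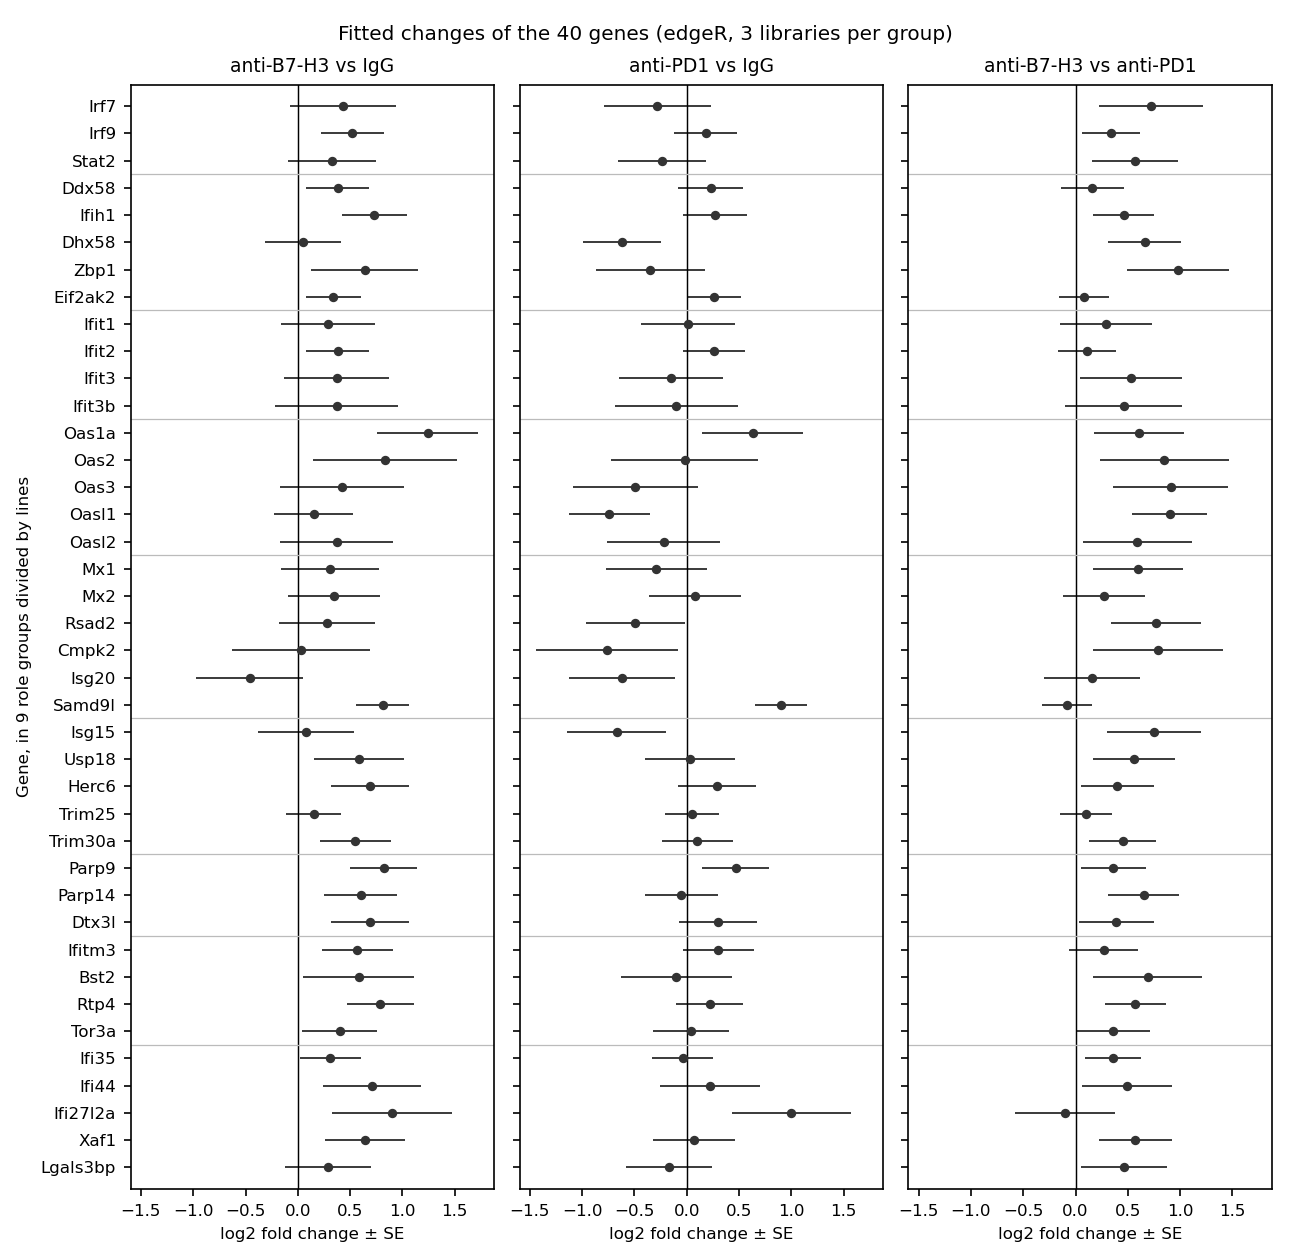
Log2 fold changes (points) with standard errors (bars) of the 40 genes in the 3 comparisons, in 9 role groups. Most points lie right of 0 in the panels of anti-B7-H3 against IgG and against anti-PD1 (39 and 38 of 40) and on both sides for anti-PD1 against IgG (21 positive), and 0 passed the adjusted threshold in each.

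The rest of the pathway was read from lists of ligands and sensors, of receptor and feedback genes, and of further interferon-stimulated genes. Interferon genes themselves were nearly absent: Ifnb1 had 2 and 1 reads in anti-B7-H3 replicates 2 and 3, then 3 reads in anti-PD1 replicate 1, and was at 0 in the 6 libraries left, and the 7 interferon genes listed all fell below the filter. Of 20 ligand and sensing genes 13 were tested and 0 passed in any comparison. Those with the smallest p over the groups were Tlr9, the endosomal DNA sensor, and Irf5, a transcription factor of myeloid cells, at 0.68 ± 0.26 and 0.65 ± 0.29 between the antibodies (edgeR adjusted p = 0.749 for both). For each of them all 3 anti-B7-H3 libraries lay above all 3 anti-PD1 libraries, as they did for 3 of the 13 in all (7.56% of tested genes).

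Receptor, kinase and feedback genes numbered 13, all tested, with 0 past the threshold in any comparison and 0 with the shared library order. Their median level was nevertheless highest in the same library of each group as that of the members. With anti-B7-H3 this rested on 0.31 in replicate 2 against 0.30 in replicate 3 (log2, relative to each gene's mean). Their summed level was higher in replicate 3, at 687 CPM against 665 CPM in replicate 2. Ifnar1 had 15.6, 22.5 and 18.4 CPM with IgG, 22.0, 23.8 and 27.8 CPM with anti-B7-H3, and 25.6, 34.9 and 22.3 CPM with anti-PD1, and Ifnar2 lay between 13.0 and 23.3 CPM in all 9 libraries. IgG replicate 1, high for the stimulated genes, thus had the lowest Ifnar1 level.

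Socs1 and Socs3, which switch off cytokine receptors, had the smallest p of this list and did not overlap between anti-PD1 and either other group. Of the 13 genes, 3 were lower without overlap with anti-PD1 than with IgG (11.9% of tested genes) and 3 were higher with anti-B7-H3 than with anti-PD1 (7.56%). Socs1 had 9.34, 4.92 and 5.52 CPM with IgG, 3.48, 6.39 and 8.02 CPM with anti-B7-H3, and 1.60, 3.06 and 2.83 CPM with anti-PD1. Its change was -1.38 ± 0.39 for anti-PD1 against IgG (edgeR adjusted p = 0.115), and that of Socs3 was -0.61 ± 0.20 (edgeR adjusted p = 0.155). Neither passed.

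Further interferon-stimulated genes, 57 listed and 55 tested, resembled the members. They were positive in 51 of 55 for anti-B7-H3 and 32 of 55 for anti-PD1 against IgG, with medians of 0.46 and 0.08, and 0 passed with edgeR in any comparison. The shared library order held for 32 of the 55. Slfn5 (0.79 ± 0.23, edgeR adjusted p = 0.168) and the mono-ADP-ribosyltransferase Parp11 (1.16 ± 0.32, edgeR adjusted p = 0.152) had the smallest p over the groups, and both were higher without overlap with anti-B7-H3 than with IgG, as were 4 of the 55 in all (7.73% of tested genes). Genes that lean to interferon gamma, 19 listed and 18 tested, had a wider swing, with a median of 1.06 for anti-B7-H3 and -0.26 for anti-PD1 against IgG and 1.26 between the antibodies. Of these, 18 of 18 were positive between the antibodies and 0 passed in any comparison. The shared library order held for 6 of the 18, and their median level peaked in replicate 3 of anti-B7-H3 (1.30) rather than replicate 2 (1.25). Ciita, the transactivator of MHC class II, had 9.73, 6.37 and 4.60 CPM with IgG, 13.0, 20.7 and 19.6 CPM with anti-B7-H3, and 6.78, 9.84 and 13.0 CPM with anti-PD1 (1.32 ± 0.32 for anti-B7-H3 against IgG, edgeR adjusted p = 0.0926). Gbp5 stood apart in IgG replicate 3, at 350 CPM against 127 and 37.1 in the other IgG libraries. It had 28.2, 42.1 and 41.7 CPM with anti-B7-H3 and 33.9, 13.6 and 29.7 CPM with anti-PD1. Its changes against IgG were -2.18 ± 0.71 and -2.72 ± 0.73 (edgeR adjusted p = 0.288 and 0.122). It was the only gene of this list with a negative change for anti-B7-H3. With anti-PD1 it was lower than with IgG without overlap, as was 1 of the 18 in all (11.9% of tested genes).

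Levels of cell type markers were set beside the members, library by library. Relative to each gene's mean over the 9 libraries, the median member level was 0.40, -0.35 and -0.66 (log2) in the IgG libraries. It was -0.16, 0.93 and 0.18 in the anti-B7-H3 libraries, then -0.21, -0.55 and 0.35 in the anti-PD1 libraries. T and NK cell markers, 10 of 11 tested, had 0.47, -0.46 and -0.09, then -0.18, 0.76 and 0.67, then -0.80, -0.14 and 0.02 in the same order. By this median their highest library in each group was that of the members. This was not particular to them. The receptor, kinase and feedback genes had the same highest libraries (0.19, 0.31 and -0.04), with 0.30 close behind in anti-B7-H3 replicate 3. So did the ligand and sensing genes (0.24, 0.24 and 0.01). The summed level of T and NK cell markers, highest in replicate 3 with anti-B7-H3, was 9.72 to 23.9, 13.9 to 29.8 and 9.54 to 15.4 CPM in the 3 groups. Klrb1c fell below the filter and was at 0 reads in IgG replicate 3, and no other of these markers was at 0 in any library. Macrophage and monocyte markers, 13 of 13 tested, were highest in replicate 3 of anti-B7-H3 (1.00) and in replicate 2 of anti-PD1 (1.05). The second of these was the lowest anti-PD1 library for 29 of 40 members, and for 38.5% of tested genes. Summed macrophage markers were 238 to 620 CPM with IgG, 657 to 1210 CPM with anti-B7-H3 and 494 to 1340 CPM with anti-PD1, and none was at 0. The shared order held for 4 of 10 T and NK cell markers and 0 of 13 macrophage markers. Plasmacytoid dendritic cells, a professional source of type I interferon, were checked with 9 markers, of which 4 were tested and Siglech (40 reads over all libraries), Ccr9, Ly6d, Klk1 and Cd209d were not. Their summed level was 98.9 to 151 CPM, of which Tcf4, a factor also found in many other cells, made up 75.6 to 143 CPM. From 0 to 3 of the 9 were at 0 reads in a library. Skeletal muscle markers, 6 of 6 tested, varied most: they summed to 101, 160 and 144 CPM in the IgG libraries, then 722, 24.5 and 3190 CPM with anti-B7-H3, and 216, 1450 and 1200 CPM with anti-PD1. They were lowest in anti-B7-H3 replicate 2, the library where most members were highest, and Ckm was at 0 reads there. Keratinocyte markers, of which only Dsp of 7 was tested, summed to 12.7 to 31.7 CPM with IgG and to 0.584 to 2.48 CPM in the antibody libraries, where up to 1 was at 0 reads. The part of any of these cells in the interferon-stimulated levels was not tested.

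**Figure D3:**
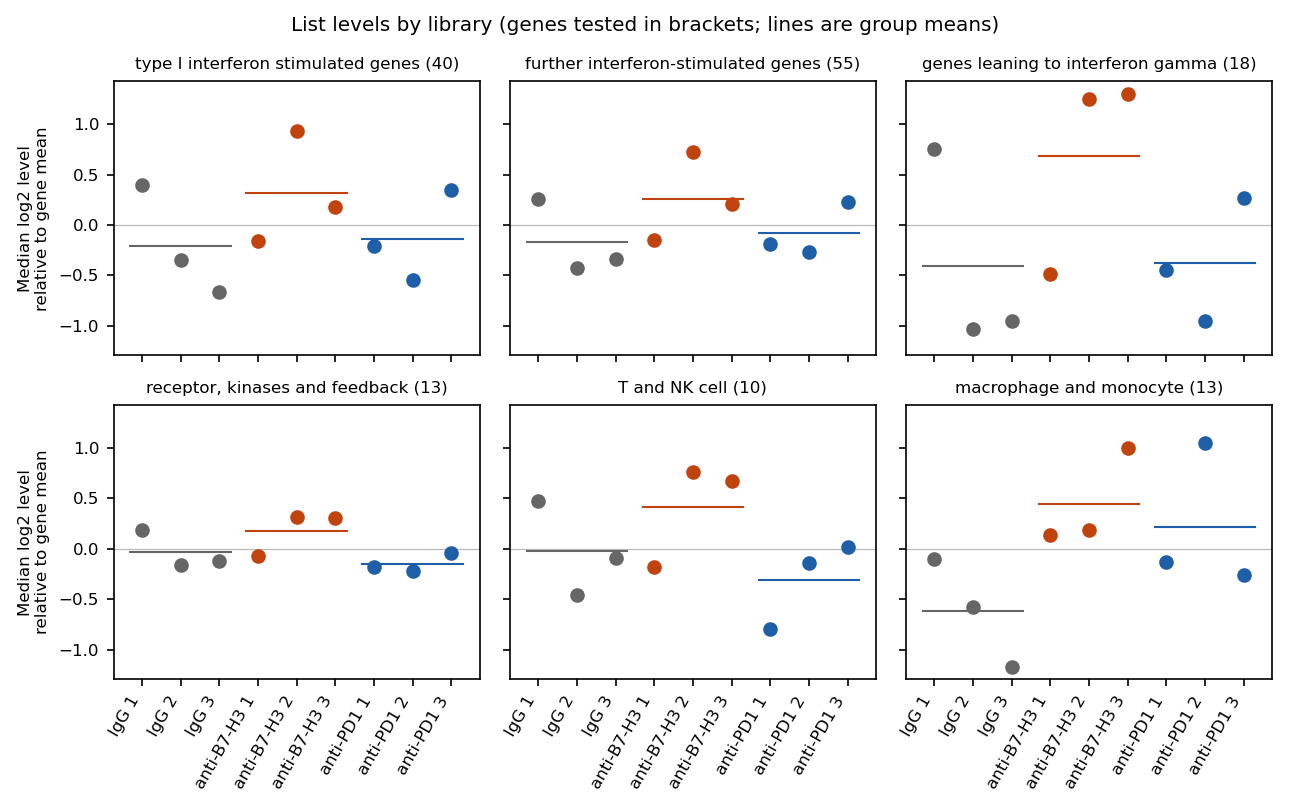
Median log2 level of each gene list relative to the gene's mean (y axis) in the 9 libraries (x axis), with points coloured by group and lines at group means. Members, further interferon-stimulated genes, receptor, kinase and feedback genes, and T and NK cell markers have the same highest library in each group. For receptor, kinase and feedback genes, replicates 2 and 3 of anti-B7-H3 are nearly level (0.31 and 0.30). Macrophage markers peak in replicate 3 of anti-B7-H3 (1.00) and in replicate 2 of anti-PD1 (1.05).

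**Figure D4:**
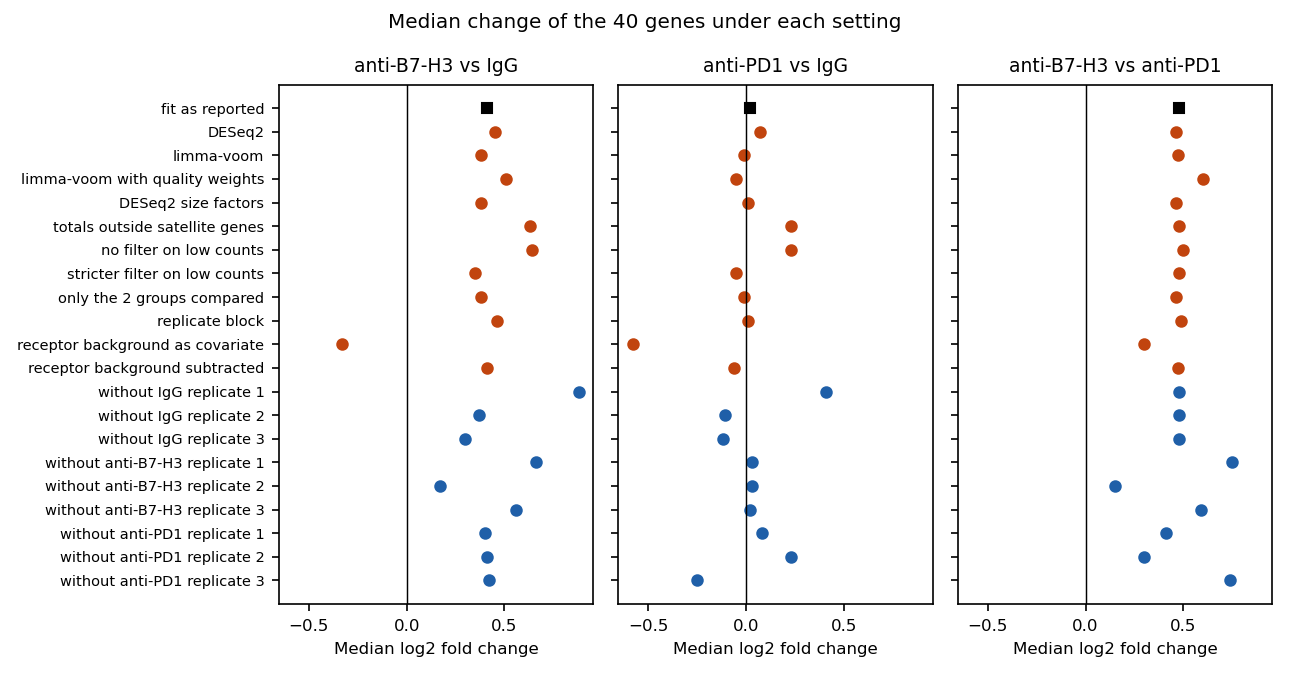
Median log2 fold change of the 40 genes (x axis) in the fit as reported (black square), under other processing (orange) and without single libraries (blue), for the 3 comparisons. Anti-B7-H3 against IgG runs from -0.33 to 0.88, anti-PD1 against IgG from -0.58 to 0.41, and the comparison between antibodies from 0.15 to 0.75.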

How the data were processed

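RNA was measured in 9 libraries, 3 per treatment. Per the file headers, the deposited tables give estimated counts per transcript (not normalized), TPM scaled by the authors for effective length, and transcript lengths. A name for the quantifier was not given in the sources used here. Per the submitters' processing notes, FastQC 0.11.8 and GRCm38 were used. Transcripts were matched by identifier to GENCODE M21 (57409 of 58083), and estimated counts were summed per gene and rounded. TPM values were not used. The gene test was edgeR 4.0.16 under R 4.3.3 (TMM, filterByExpr with a minimum count of 10, robust quasi-likelihood fit to all 9 libraries, group as the only term), which left 12965 genes. Adjusted p-values are Benjamini-Hochberg values over all of these, with 0.05 as the threshold. Alternatives used DESeq2 1.42.0 and limma 3.58.1 among others. The DESeq2 fit was given all genes, without the filterByExpr step. The 12 satellite genes share more than 30% of their 15-base words with 3 satellite transcripts. Tested on simulated data, the fit missed most changes as small as the members' fitted folds, so a member that did not pass is not shown to be unchanged. Members, gene lists and background measures were chosen with earlier results of these data known. Values are given for the 2 members of each of 9 role groups with the smallest p over the 3 groups, for members past the threshold, and for the 2 such genes of each pathway list together with Ifnar1, Ifnar2 and Ifnb1. A further gene named by that rule is not reported here. Other genes named with values (Isg15, Isg20, Mx1, and extremes of a range) were chosen after their values were seen.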

Additional observations from a re-analysis of the deposited data

How the results depend on the processing

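None of the 40 members passed in the edgeR fits as reported. DESeq2 called 1 member, Samd9l, in each comparison with IgG (1 and 1) and 1 over the 3 groups. Without a filter on low counts 3 (Ifih1, Samd9l and Rtp4), 1 and 1 were called in the same order. DESeq2 and the unfiltered fit also called 2840 and 1097 of all genes for anti-B7-H3 and 2346 and 731 for anti-PD1, against 72 and 51 as reported. For the same comparisons all-gene counts were 362 and 425 with quality weights, 0 and 5 with the receptor covariate, 2 and 6 with the stricter filter, and 20 and 88 with only the groups compared. Without single libraries the number called ran from 0 to 1 for anti-B7-H3 against IgG and over the 3 groups (Samd9l, without anti-B7-H3 replicate 1), and from 0 to 0 for the other comparisons. The member median without single libraries ran from 0.17 to 0.88 (anti-B7-H3 against IgG), -0.25 to 0.41 (anti-PD1 against IgG) and 0.15 to 0.75 (between antibodies). With the receptor background as a covariate it was -0.33 and -0.58 for the antibodies against IgG. Totals outside the satellite genes shifted the median of all tested genes to 0.27 and 0.25 in the comparisons with IgG, and the member medians to 0.63 and 0.23. The replicate block left 0 members called, with member medians of 0.46, 0.01 and 0.49, and 98 and 124 of all genes called against IgG. It changed no call of a member. No pairing by replicate number was visible in these libraries. Deviations from group means correlated at -0.32 to 0.18 over genes for same-numbered libraries and at -0.43 to 0.52 for the others.

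No member was called in the edgeR fits as reported, so no change of sign could affect a call there. Samd9l, which changed sign in some alternatives, was called in others. With the receptor covariate, log2 fold changes for anti-B7-H3 against IgG turned to -0.42 for Irf9, -0.55 for Irf7, -0.89 for Dhx58, -0.07 for Ifit2, -0.05 for Ifit3, -0.39 for Oas1a, -0.46 for Oasl1, -0.06 for Samd9l, -0.18 for Rsad2, -0.32 for Parp9, -1.24 for Ifitm3, -0.59 for Xaf1 and -1.20 for Ifi27l2a. For anti-PD1 against IgG they turned to -0.56 for Irf9, -0.07 for Ifih1, -0.06 for Ifit2, -0.65 for Oas1a, -0.04 for Herc6, -0.19 for Trim30a, -0.40 for Parp9, -0.38 for Rtp4, -1.11 for Ifitm3, -0.87 for Xaf1 and -0.74 for Ifi27l2a, and between the antibodies to -0.00 for Ifit2 and -0.13 for Ifitm3. Dhx58 for anti-B7-H3 against IgG was -0.02 in limma-voom, -0.01 with the stricter filter and -0.01 with the replicate block. Xaf1 for anti-PD1 against IgG was -0.01 with quality weights and -0.05 with the background subtracted. Ifit3 and Parp14 there were 0.06 and 0.19 with totals outside the satellite genes and 0.06 and 0.18 without a filter. Between the antibodies Ifi27l2a was 0.00 in limma-voom and 0.62 with quality weights, where Samd9l was 0.04. The receptor background did not overlap between IgG and antibody libraries, so that covariate and treatment cannot be told apart in comparisons with IgG. The cause was not tested.

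Without single libraries, ranges that crossed 0 for anti-B7-H3 against IgG were -0.39 to 0.36 for Dhx58, -0.08 to 0.83 for Irf7, -0.15 to 0.89 for Ifit3, -0.27 to 0.40 for Oasl1 and -0.35 to 0.69 for Rsad2. For anti-PD1 against IgG they were -0.91 to 0.11 for Irf7, -0.36 to 0.36 for Ifit3, -0.27 to 0.35 for Parp14, -0.14 to 0.44 for Trim30a, -0.15 to 0.48 for Xaf1, -0.04 to 0.54 for Irf9 and -0.03 to 0.68 for Herc6. Between the antibodies they were -0.35 to 0.15 for Samd9l, -0.49 to 0.53 for Ifi27l2a, -0.22 to 0.38 for Ifit2, -0.01 to 0.81 for Ifit3 and -0.07 to 0.53 for Ifitm3.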
